A study of Mus musculus with 4 samples.

Results

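The genes of sterol and fatty acid synthesis, with the regulators that set their transcription and a few genes of sterol transport, were examined in a mouse B cell line with and without Mbd4. The set was drawn up by pathway membership and holds 36 genes. Levels are given per transcript cluster, a group of probes summarised as 1 level. A gene was counted as measured where the array's gene table pairs at least 1 cluster with its symbol alone. This held for 34 of the 36, and for 19938 genes in all. Acat2, a thiolase of the first step, and Nr1h2, an oxysterol receptor, had no such cluster and were not analysed here. The RNA came from CH12.F3, a B lymphoma line used to study antibody class switching. Control cells and Mbd4 KO cells, which lack the DNA glycosylase Mbd4, were each represented by 2 whole-transcript arrays. Both groups carried the same stimulation: CD40L at 25% of the culture volume, TGFb at 0.2 ng/ml and IL4 at 5 ng/ml, for 24 hours, in medium with 6% FCS. No arrays of resting cells belong to the design, and the labels do not tell how many knockout clones or cultures were used, so each p-value reflects nothing more than how far these 4 arrays scatter, and that scatter may be technical.

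Cells build cholesterol from acetyl-CoA through mevalonate, isoprenoid diphosphates, squalene and lanosterol. When sterols in the endoplasmic reticulum run low, the escort protein SCAP carries the transcription factor SREBP to the Golgi for cleavage, while INSIG proteins hold the complex back when sterols are plentiful. SREBP-2 (Srebf2) acts mainly on sterol enzyme genes and SREBP-1 (Srebf1) mainly on fatty acid synthesis genes. Oxysterol receptors of the LXR family promote sterol efflux and also raise Srebf1. Activated lymphocytes use both pathways to make membrane as they grow and divide.

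Mbd4 itself read 8.74 and 8.77 (log2) on the control arrays and 6.47 and 6.49 on the Mbd4 KO arrays, a fall of 4.86-fold (limma adjusted p = 0.0002), so the arrays ranked as labelled, although how its probes lie to the deleted part is not stated. All 7 measured B cell markers of 8 listed lay above the median of every array, between 10.37 and 13.41 in control and between 10.4 and 13.37 in Mbd4 KO arrays. The largest rise among them was in Cd22 (10.37 and 10.51 in control, 10.94 and 10.83 in Mbd4 KO arrays, limma adjusted p = 0.0843). The largest fall was in Blnk (11.64 and 11.66 against 11.33 and 11.40, limma adjusted p = 0.15), and none of the 7 was called. The 4 T cell markers lay below the array medians on at least 1 array each, and those of hepatocytes, a cell type with high lipid synthesis, read between 5.44 and 7.41. Above the median of every array lay 1 of the 3 hepatocyte markers, 2 of the 4 fibroblast markers and 1 of the 4 macrophage markers. The 4 fibroblast markers read between 5.85 and 7.65, and Pdgfrb among them read 7.23 and 7.46 against 6.80 and 6.85 (limma adjusted p = 0.0783). The others did not all go that way. Pdgfra differed by 0.21 and Col1a2 by 0.038 (log2, Mbd4 KO minus control), while Col1a1 differed by -0.077, and none of the 4 was called. Of 4 macrophage markers only Adgre1 was called, lower in Mbd4 KO cells (7.69 and 7.68 against 6.58 and 6.67; limma adjusted p = 0.00311). The summed log2 levels of that list were 26.8 and 26.7 in control arrays and 25.8 and 26.2 in Mbd4 KO arrays. For fibroblast markers they were 28.1 on both control arrays against 27.9 and 27.6. Whether these have a part in the differences below was not tested.

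Sterol enzymes read modestly higher in Mbd4 KO cells along most of the pathway, whereas the 1 call in the whole set was a fall, in the malic enzyme gene Me1. Of 17 sterol enzyme genes measured, 16 had higher means in Mbd4 KO cells, against 57.9% of all genes. Their median difference, Mbd4 KO minus control, was 0.235 (log2), while the median over all genes was 0.0231. In 15 of the 17 both Mbd4 KO arrays lay above both control arrays, as they did in 27.0% of all genes, and in 0 of the 17 both lay below, as in 18.1% of all genes. None of the sterol enzymes was called at a limma adjusted p of 0.05, where 0.451% of all genes were called higher and 0.923% lower. At an unadjusted limma p under 0.05, 10 of the 17 were higher and 0 lower, against 7.59% and 6.38% of all genes. These genes vary together and were picked with earlier results known, so the counts describe these arrays and are not a test of the pathway.

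**Figure D1:**
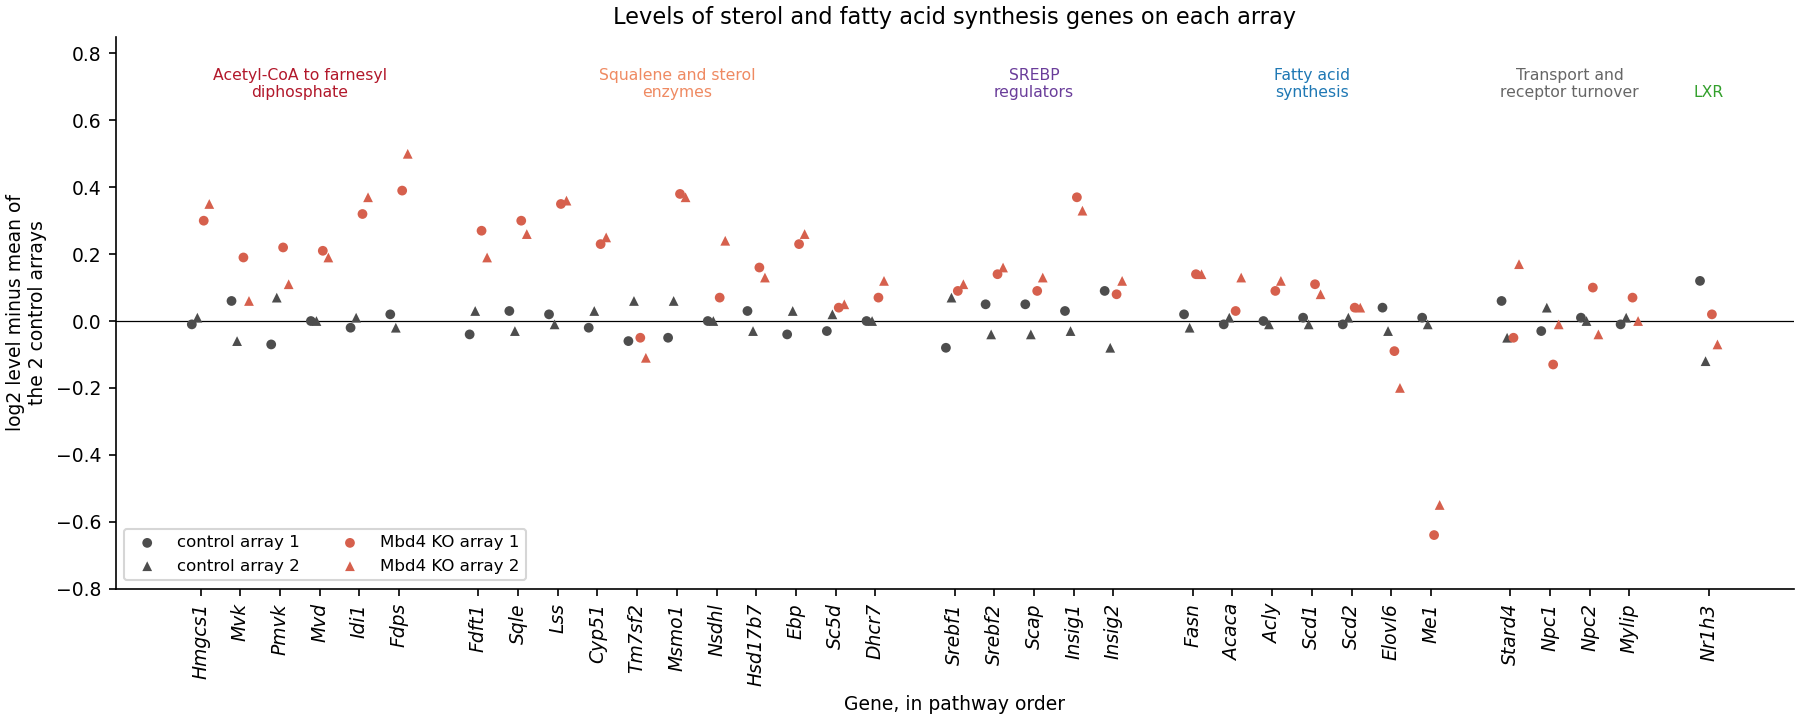
Level of each of the 34 measured genes on the 4 arrays, as log2 level minus the mean of the 2 control arrays (vertical axis), with genes in pathway order (horizontal axis). Circles and triangles are arrays 1 and 2, grey for control and red for Mbd4 KO. Red points lie above grey points across most sterol enzymes, by up to 0.45 on average for Fdps, and far below them for Me1.

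The first enzymes, from acetyl-CoA to farnesyl diphosphate, had a median difference of 0.261 over 6 genes, against 0.235 over the 11 later enzymes. Hmgcs1, the HMG-CoA synthase gene, read 10.95 and 10.97 in control arrays and 11.26 and 11.31 in Mbd4 KO arrays. That is 1.25-fold higher, a difference of 0.32 ± 0.067 (log2, SE; limma adjusted p = 0.102), and the groups did not overlap. The kinases that phosphorylate mevalonate differed less. Mvk, mevalonate kinase, read 9.35 and 9.23 against 9.48 and 9.35, so that the groups met at 9.35, and Pmvk, phosphomevalonate kinase, read 7.84 and 7.98 against 8.13 and 8.02. Their differences were 0.13 ± 0.083 and 0.16 ± 0.083 (log2, SE). Mvd, the decarboxylase that yields isopentenyl diphosphate, read 9.60 on both control arrays and 9.81 and 9.79 on the Mbd4 KO arrays, so the groups stood apart (0.20 ± 0.065, log2, SE).

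Fdps, which joins isoprene units into farnesyl diphosphate, had the largest difference of the sterol enzymes. It read 9.69 and 9.65 in control cells against 10.06 and 10.17 without Mbd4, 1.36-fold higher (0.45 ± 0.073, log2, SE; limma adjusted p = 0.0568), and 0.657% of all genes had a larger difference in that direction. Idi1, the isomerase that supplies dimethylallyl diphosphate to Fdps, has 2 clusters. The brighter read 11.00 and 11.03 against 11.34 and 11.39, a difference of 0.35 ± 0.067, and the other 10.79 and 10.91 against 11.17 and 10.98, a difference of 0.23 ± 0.092. Both clusters were higher on both Mbd4 KO arrays, but in the dimmer one the SD of the 2 Mbd4 KO arrays was 0.136 and the second was close to a control array. The sources used here do not tell which exons the probes of each cluster read.

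Downstream of farnesyl diphosphate, differences over the 11 enzymes ran from -0.08 for Tm7sf2 to 0.37 for Msmo1. Fdft1, squalene synthase, read 11.61 and 11.68 against 11.92 and 11.84 in its brighter cluster and differed by 0.24 and 0.18 in its 2 clusters. Sqle, squalene epoxidase and a slow step of the pathway, read 11.43 and 11.37 in control arrays and 11.70 and 11.66 in Mbd4 KO arrays (0.27 ± 0.069, log2, SE). Lss, which folds epoxidised squalene into lanosterol, read 10.16 and 10.13 against 10.49 and 10.50, a difference of 0.35 ± 0.066 with Mbd4 KO arrays nearly equal. Cyp51, the lanosterol demethylase, read 10.73 and 10.78 against 10.98 and 11.00 (0.24 ± 0.067). Msmo1, a methyl sterol oxidase, read 11.11 and 11.22 in control cells against 11.54 and 11.53 without Mbd4. At 0.37 ± 0.072 it had the largest difference after Fdps (limma adjusted p = 0.0899). In Fdft1, Sqle, Lss, Cyp51 and Msmo1 the lowest Mbd4 KO array stood above the highest control array.

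Nsdhl and Hsd17b7, which work with Msmo1 to strip the methyl groups, differed by 0.15 each. Nsdhl read 9.82 on both control arrays but 9.89 and 10.06 on the Mbd4 KO arrays, so most of its difference came from the second. Ebp, the sterol isomerase, read 8.49 and 8.56 against 8.76 and 8.79 (0.25 ± 0.068). Sc5d, a desaturase, read 10.51 and 10.56 against 10.58 and 10.59, and Dhcr7, which makes cholesterol from 7-dehydrocholesterol, read 10.32 on both control arrays against 10.39 and 10.44. With differences of 0.046 and 0.098, these late enzymes lay between the quartiles of all genes (-0.0584 and 0.1). Tm7sf2, one of a pair of enzymes with sterol reductase activity for the same step, was the exception in direction. It read 8.06 and 8.18 in control cells against 8.07 and 8.01 without Mbd4, a difference of -0.08 ± 0.075 with overlapping groups.

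**Figure D2:**
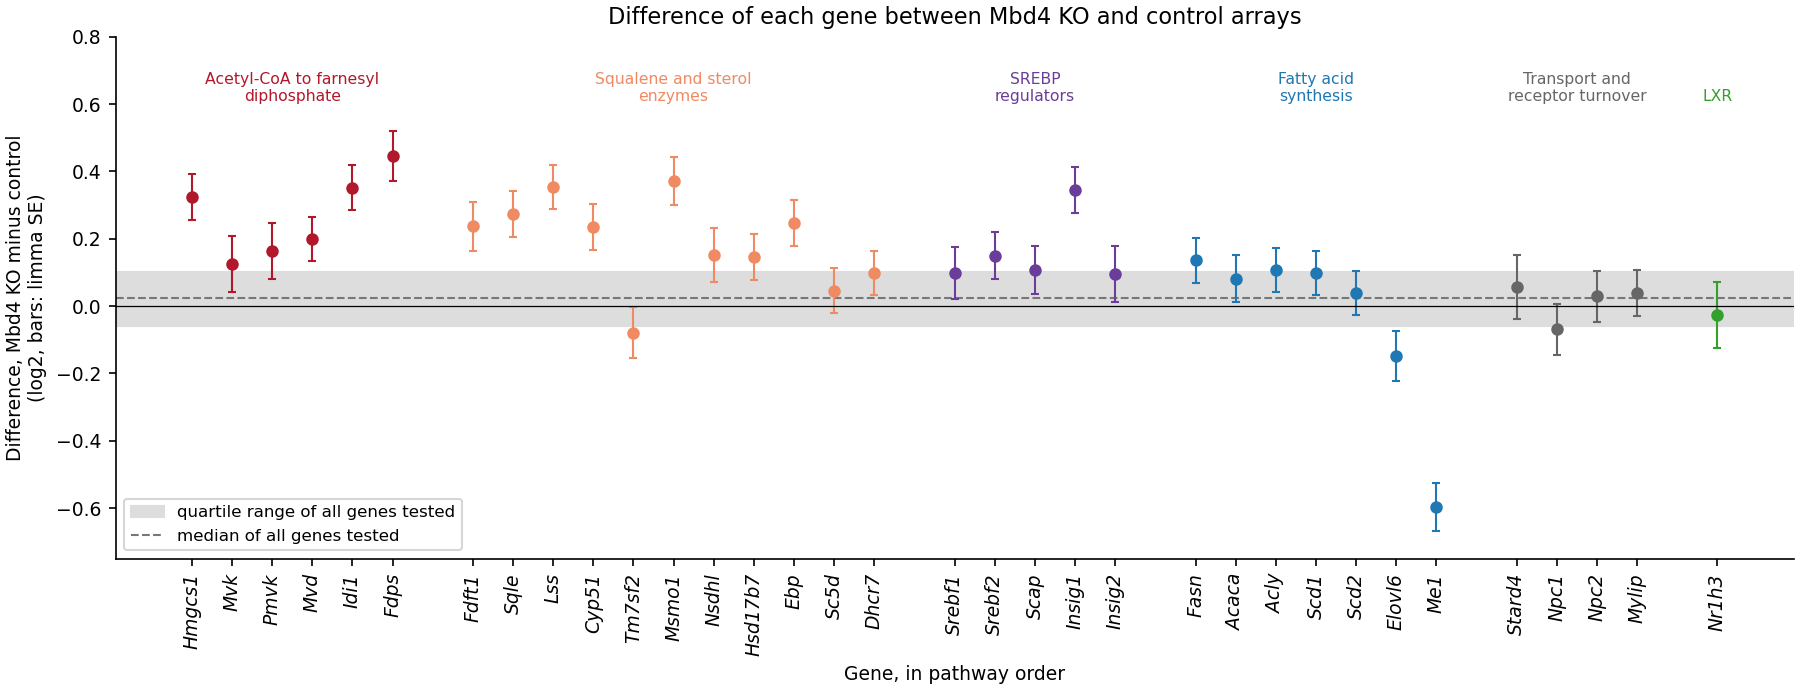
Difference of each measured gene, Mbd4 KO minus control in log2 units (vertical axis), with bars for limma's SE and genes in pathway order (horizontal axis). The grey band spans the quartiles of all genes tested, -0.0584 to 0.1, and the dashed line is their median, 0.0231. Most sterol enzymes lie above the band, as do Insig1, Srebf2 and Scap. Fatty acid synthesis genes lie in or near it, with Fasn and Acly above it and Elovl6 below it, and Me1 lies far below it.

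Whether the sterol enzymes passed the threshold turned on the variance model and the genes tested. With an intensity trend in limma's prior, 9 of the 34 measured genes were called higher. They were Hmgcs1, Idi1, Fdps, Fdft1, Sqle, Lss, Cyp51, Msmo1 and Insig1. Of all 21789 clusters tested, 1121 were called under that setting, in either direction. Without the dimmest 30% of clusters, 6 were called higher (Hmgcs1, Idi1, Fdps, Lss, Msmo1 and Insig1), among 640 clusters called in either direction. These totals are not split by direction, so they give no share called higher to set beside the counts of members. Under both settings Me1 remained called, lower. Other settings of the same kind lowered the count. With all clusters of the table tested 0 members were called, among 22 clusters in all, and without moderation of the variance 0 members and 0 clusters were called.

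Promoter sequences of Msmo1, Lss, Idi1 and Hmgcs1, which had the largest differences of the sterol enzymes after Fdps, and of Me1 as the gene that fell, are printed because SREBP is known to act at sterol regulatory elements together with the CCAAT-binding factor NF-Y. They are RefSeq promoter windows of GRCm38.p6, from 250 bases before to 50 bases after the annotated start, of which a stretch before the start is shown in the gene's 5′ to 3′ direction. A set of 3 motifs were searched on both strands: the NF-Y box CCAAT, whose reverse complement reads ATTGG, then the sterol regulatory element TCACNCCAC, and finally the E-box CACGTG. The searched letters share no overlap in the stretches shown. Capitals mark a match. Fdps had no entry in the table used. The stretches are chr8:64733604-64733763 (minus strand) for Msmo1, chr10:76531518-76531572 (plus) for Lss, chr13:8885536-8885605 (plus) for Idi1, chr13:119690101-119690335 (plus) for Hmgcs1 and chr9:86695915-86696014 (minus) for Me1.
Msmo1: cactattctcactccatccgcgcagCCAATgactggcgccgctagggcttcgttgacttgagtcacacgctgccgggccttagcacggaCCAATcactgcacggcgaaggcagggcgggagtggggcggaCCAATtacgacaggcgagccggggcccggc
Lss: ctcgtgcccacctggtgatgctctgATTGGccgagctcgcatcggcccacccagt
Idi1: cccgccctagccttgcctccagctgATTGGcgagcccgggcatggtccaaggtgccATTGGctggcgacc
Hmgcs1: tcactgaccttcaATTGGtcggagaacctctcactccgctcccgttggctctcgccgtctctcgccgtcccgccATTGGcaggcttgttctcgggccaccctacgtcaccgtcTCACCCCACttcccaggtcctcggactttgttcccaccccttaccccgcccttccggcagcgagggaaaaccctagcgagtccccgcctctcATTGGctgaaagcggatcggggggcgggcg
Me1: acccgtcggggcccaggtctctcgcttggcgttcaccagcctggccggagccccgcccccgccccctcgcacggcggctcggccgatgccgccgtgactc

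Msmo1 held 3 CCAAT boxes in the same orientation, at 160, 96 and 55 bases before the start, Idi1 held 2 and Lss 1, the nearest to the start lying 14 and 62 bases before it. Hmgcs1 held the only TCACNCCAC match of the 29 genes with a promoter entry, 137 bases before the start between CCAAT boxes, against 1.44% of all 27025 genes of the table. The window of the first Me1 start site had no match of any of the 3 motifs, and that of its second listed start had 1 CCAAT box. Among sterol enzymes, 14 of 15 with an entry had a CCAAT box in at least 1 listed window, including Tm7sf2, whose level was not higher, and Sc5d, whose difference was small. Of all genes 41.1% had one. The box was found in at least 1 listed window of 4 of 5 SREBP regulators (not of Scap) and of 3 of 5 fatty acid genes, Fasn, Acly and Me1. Those 5 regulators had 10 listed windows, of which 5 held the box, against 37.4% of the windows of all genes. CACGTG was found in 3 of the 15 sterol enzymes, Hsd17b7, Sc5d and Dhcr7, and in Insig1 and Scap, against 8.09% of all genes. Only these exact letters within the windows were searched, so a variant of an element or one lying elsewhere would be missed. Such matches describe the letters only, and the arrays measure no binding.

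Of the regulators, Insig1 had the largest difference, above the sterol enzymes' median, and the other 4 lay below that median. Insig1, which retains SCAP in the endoplasmic reticulum and is itself a classical SREBP target, read 11.57 and 11.51 in control arrays and 11.91 and 11.87 in Mbd4 KO arrays. It was 1.27-fold higher, by 0.34 ± 0.069 (log2, SE; limma adjusted p = 0.097), and the groups stood apart by several times their spread. Its relative Insig2 read 9.06 and 8.89 against 9.05 and 9.09, so that control array 1 lay between the Mbd4 KO arrays. Srebf2, the sterol-directed SREBP gene, read 11.44 and 11.35 against 11.53 and 11.55 (0.15 ± 0.070). Scap read 10.22 and 10.13 against 10.26 and 10.30 (0.11 ± 0.071), and Srebf1 9.49 and 9.64 against 9.66 and 9.68 (0.099 ± 0.078), where the nearest arrays of the groups differed by no more than the 2 control arrays did. All 5 regulators had positive differences, with a median of 0.107. By limma 0 of 5 were called after adjustment, where 0.451% of all genes were called higher, and Insig1 was the 1 with an unadjusted p under 0.05, where 7.59% of all genes were higher. Without control array 1 that median was 0.182. These are transcript levels, and cleavage of SREBP proteins is not measured by arrays.

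Over the 7 fatty acid synthesis genes the median difference was 0.0819, 5 were positive, and the largest difference was a negative one. The highest, 0.14 for Fasn, lay within the range of the sterol enzymes and under their median of 0.235. Fasn, the fatty acid synthase, read 11.24 and 11.20 in control cells and 11.36 on both Mbd4 KO arrays, 1.1-fold higher (0.14 ± 0.066, log2, SE; limma adjusted p = 0.44). Acly, which makes cytosolic acetyl-CoA for both pathways, read 10.79 and 10.78 against 10.88 and 10.91 (0.11 ± 0.065). Acaca, acetyl-CoA carboxylase, differed by 0.082 in its brighter cluster, where it read 10.95 and 10.97 against 10.99 and 11.09, and by 0.0064 in the other, where the groups overlapped. Scd1, a stearoyl-CoA desaturase, read 12.57 and 12.55 against 12.67 and 12.64, and its relative Scd2 13.17 and 13.19 against 13.22 on both Mbd4 KO arrays. In these 5 genes the Mbd4 KO arrays lay above the controls, taking the brighter cluster of Acaca, by at most 0.14 on average, an order that 27.0% of all genes had. Elovl6, which lengthens palmitate, was dim on every array, at 6.04 and 5.97 against 5.91 and 5.80, below the median of each array (-0.15 ± 0.074).

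Me1, the cytosolic malic enzyme that supplies NADPH for lipid synthesis, fell in Mbd4 KO cells in both of its clusters. The brighter read 7.35 and 7.33 in control arrays and 6.70 and 6.79 in Mbd4 KO arrays, a difference of -0.60 (log2; SE 0.0706), 1.51-fold lower (limma adjusted p = 0.0233). The other read 7.18 and 6.99 against 6.43 and 6.45, a difference of -0.65 (log2; SE 0.0848), 1.56-fold lower (limma adjusted p = 0.0335). In both clusters every Mbd4 KO array lay below every control array, and only 0.607% of all genes had a larger fall than the brighter cluster. The control values lay above the medians of their arrays (6.944 and 6.978) and the Mbd4 KO values below theirs (6.965 and 6.971), so Me1 is a dim gene on these arrays. With any 1 array left out the difference ran from -0.643 to -0.549 in the brighter cluster and from -0.739 to -0.552 in the other. Neither cluster was called with all clusters of the table tested (limma adjusted p = 0.171 and 0.187) or without moderation of the variance (limma adjusted p = 0.298 and 0.367). Those settings called only 22 and 0 clusters in all, so they say little about Me1 in particular. Adgre1, the macrophage marker given above, also fell, while Lyz2 and Itgam of the same list differed by 0.24 and 0.10 and Csf1r by -0.07, none of them called.

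**Figure D3:**
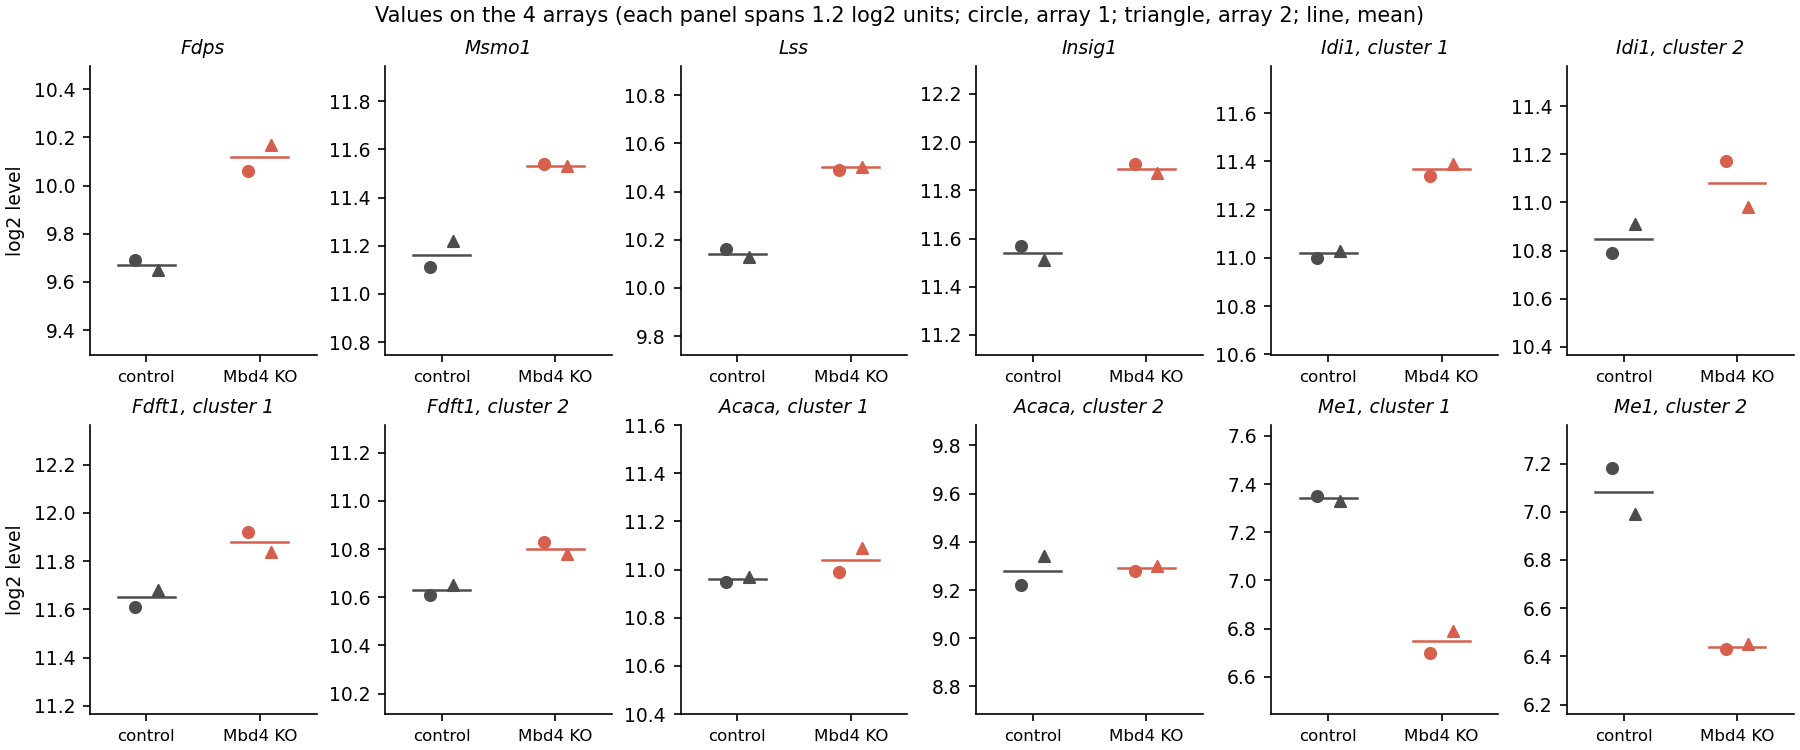
Log2 level on each array (vertical axis, each panel spanning the same width) in control and Mbd4 KO cells (horizontal axis), for Fdps, Msmo1, Lss, Insig1 and both clusters of Idi1, Fdft1, Acaca and Me1. Circles are array 1, triangles array 2 and lines the mean of 2 arrays. The 2 clusters of Me1 read lower in Mbd4 KO cells by 0.60 and 0.65, and those of Idi1 and Fdft1 read higher.

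Genes of sterol transport and receptor turnover showed no group apart. Stard4, a cytosolic sterol carrier and SREBP target, read 9.17 and 9.06 in control arrays and 9.06 and 9.28 in Mbd4 KO arrays. Npc1 and Npc2, which move cholesterol out of lysosomes, read 10.35 and 10.42 against 10.25 and 10.37, and 9.86 and 9.85 against 9.95 and 9.81. Mylip, an LXR-induced ubiquitin ligase that degrades lipoprotein receptors, read 6.48 and 6.50 against 6.56 and 6.49, below each array's median. Nr1h3, the LXR alpha gene, read 6.81 and 6.57 against 6.71 and 6.62, also below each median. In all 5 genes the arrays of the groups overlapped, as in 54.9% of all genes, with differences between -0.07 and 0.06 and limma adjusted p from 0.749 to 0.944.

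Side by side, the mean over 6 enzymes up to farnesyl diphosphate lay 0.27 and 0.26 above the control mean on the Mbd4 KO arrays 1 and 2. The mean over 11 later enzymes lay 0.19 above it on each, and that over 5 SREBP regulators 0.15 and 0.17. For the 7 fatty acid genes it was -0.05 and -0.03, and for the 6 without Me1 0.05 on each. The control arrays differed from their own mean by at most 0.0274 in these groups. Thus 16 of 17 sterol enzymes, 5 of 5 regulators and 5 of 7 fatty acid genes had positive differences, with medians of 0.235, 0.107 and 0.0819 against 0.0231 over all genes. The fatty acid median was 0.0383 without Mbd4 KO array 2 and 0.0441 with the mean of a gene's clusters. The difference between the groups of genes itself was not tested, since 2 arrays against 2 can give no two-sided exact permutation p under 0.333.

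**Figure D4:**
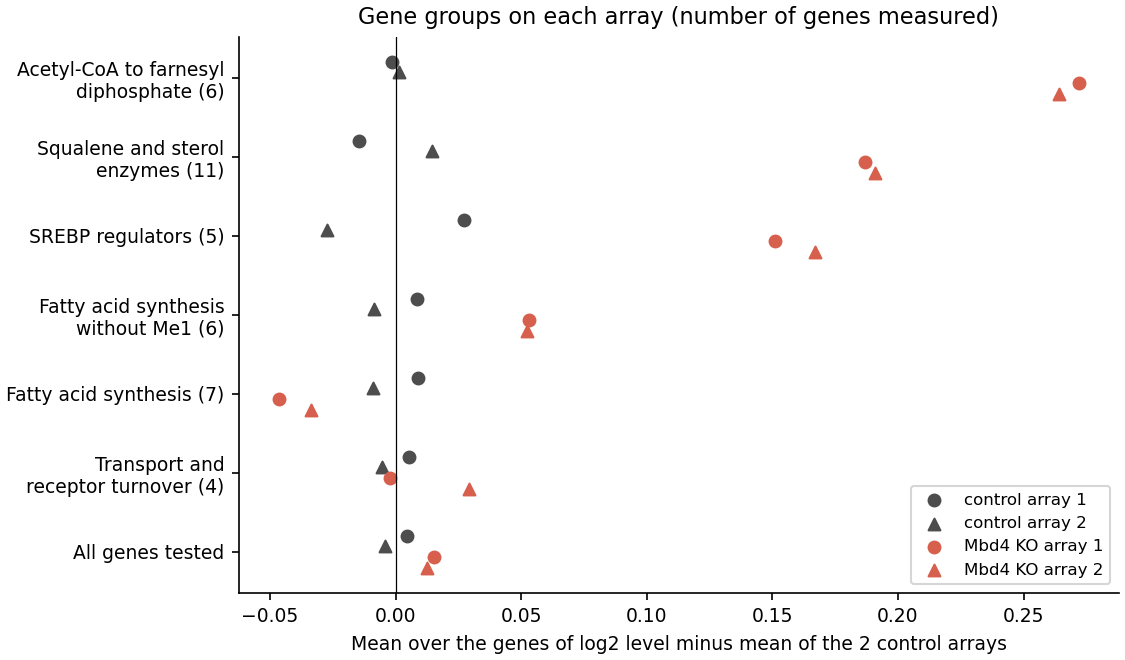
Mean over each group's genes of the log2 level minus the mean of the 2 control arrays (horizontal axis), for 6 gene groups and all genes tested (vertical axis). Circles are array 1, triangles array 2, grey control and red Mbd4 KO. The sterol enzyme groups lie 0.187 to 0.272 above control on both Mbd4 KO arrays, and the fatty acid group without Me1 lies 0.0523 to 0.053 above it.

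Other genes of these pathways, listed by function, had 0 calls at a limma adjusted p of 0.05. At an unadjusted limma p under 0.05 they gave 6 higher and 4 lower of 57 measured, where all genes gave 7.59% and 6.38%. Positive differences made up 57.9% of all genes. Among 23 measured genes of sterol metabolism outside the set, the median difference was 0.0321, 14 were positive and 9 negative. Lipa, the lysosomal lipase that frees cholesterol from its esters, differed by 0.22 and Lbr, the other sterol reductase of the step of Tm7sf2, by 0.17, while Cyb5b, a cytochrome b5 gene, differed by -0.18 and Acat1, the mitochondrial thiolase, by -0.13. Among 28 genes of fatty acid and glycerolipid metabolism the median was 0.0548, with 16 positive and 12 negative. Lpin1, a phosphatidate phosphatase gene, differed by 0.34 and Acss2, an acetyl-CoA synthetase gene and SREBP target, by 0.28. Hacd1 and Dgat2, a dehydratase gene of fatty acid elongation and an acyltransferase gene of triglyceride synthesis, differed by -0.51 and -0.37, but the second cluster of Hacd1 differed by 0.086. Of 6 genes of LXR function, Abca1, the sterol efflux pump, differed by 0.32 and Rxrb by 0.084, while Abcg1 differed by -0.051 and Ncoa1 by -0.029. Abca1 read 8.42 and 8.45 in control arrays and 8.59 and 8.92 in Mbd4 KO arrays, so its difference came mostly from the second.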

How the data were processed

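The authors deposited a log2 level for each transcript cluster and array. RMA is the tool that the submitters' processing notes name, with version and settings not stated there. That the scale is log2 follows from the values themselves, which run from 2.693 to 14.7. No raw intensity was used, so background was not assessed, and the number of arrays limits the precision.

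Of 35556 clusters, 21789 had 1 gene symbol in the platform's table and were tested, 1621 had several and 12146 none. Groups came from the sample titles. limma 3.58.1 (R 4.3.3; lmFit and eBayes, two-sided, Benjamini-Hochberg over all 21789, threshold 0.05) gave differences, moderated SE and p, with 2 residual and 4 prior degrees of freedom. A gene with several clusters was counted by the one with the highest mean. The fit was tested on simulated data, where it missed most changes as small as those of the sterol enzymes. A gene that was not called is therefore not shown to be unchanged. Every gene of the set is named, with Mbd4 and, of the other lists, the 2 largest differences in each direction. Members and lists were chosen with earlier results of these data known. Figures used matplotlib 3.10.9.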

Additional observations from a re-analysis of the deposited data

How the results depend on the processing

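Member counts at limma's threshold were the least stable result. Against 1 called gene among the members, Me1, the counts were 10 with an intensity trend in the prior, 7 without the dimmest 30% of clusters and 6 at an adjusted p of 0.1, in each case Me1 lower and the others higher. They were 0 when all clusters of the table were tested, 0 without moderation of the variance and 0 with any 1 array left out. Over all clusters the call count of 302 became 1121, 640 and 593 under the first 3 settings, and 22, 0 and 65 to 75 under the others. With the replicate number as a block 0 members were called and 159 clusters in all, and Me1 had limma adjusted p of 0.0552 and 0.0643. Deviations of same-numbered arrays correlated by 0.0831 across clusters. With 2 arrays per group that value cannot tell whether the arrays were paired. The labels give the arrays a shared number and no stated pairing. The robust prior and both renormalizations left the call of Me1 as it was.

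The sterol enzyme median of 0.235 was 0.206 with the mean of a gene's clusters and 0.202 to 0.244 with any 1 array left out. The fatty acid median of 0.0819 was 0.0999 after quantile normalization, 0.0441 with the mean of a gene's clusters, 0.0383 to 0.0881 with any 1 array left out, and 0.0902 without Me1, an alternative chosen after seeing the data. The regulator median of 0.107 ranged from 0.0898 to 0.182 with any 1 array left out. Signs turned for 4 uncalled clusters with 1 array left out: the dimmer of Acaca (-0.0526 to 0.0655, and -0.000417 with cyclic loess), Stard4 (-0.0505 to 0.164), Npc2 (-0.0381 to 0.096) and Nr1h3 (-0.142 to 0.0913). The causes of these shifts were not tested.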
